A study of Homo sapiens with 6 samples.

Results

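Chromatin is opened, closed and marked by large families of enzymes. SWI/SNF, CHD and ISWI complexes use ATP to move nucleosomes, lysine methyltransferases (KMT and SETD proteins) and demethylases (KDM proteins) write and erase methyl marks on histones, histone deacetylases (HDACs) remove acetyl groups, and bromodomain proteins bind acetylated histones. Many of these genes have long transcripts with many exons, and SMARCA4 and ARID1A are recurrently mutated in lung adenocarcinoma (LUAD). The genes described here were chosen by their symbols: those that begin with SMARC, those that begin with CHD, KDM, KMT, HDAC, BRD or SETD and a digit, and those of the ARID1 to ARID5 families. The rule took 800 listed alternative splicing (AS) events in 84 genes, and 725 of them, in 82 genes, had a mean of at least 10 junction reads over the 6 libraries. These 725 events stand among 66395 tested events of 10147 genes. The other 75 events were read too little and were not tested. The counts include 1 event of BRD3OS, a gene taken by its symbol alone that is in none of the lists below.

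The work used NCI-H1975, a human LUAD line long kept in culture. Cells were transfected with a pcDNA3.1 plasmid that carries SAM68, an RNA-binding protein that acts on splicing, or with the pcDNA3.1 plasmid alone as control, at 2 µg per well with a lipid reagent. RNA was taken after 48 h, and 3 libraries of each group were sequenced. The libraries of a group are listed without replicate numbers, so they are named here by their position in the list, and nothing in the labels says whether they came from separate cultures. The study's methods call them biological replicates and do not say whether each was a transfection of its own. The adjusted p-values of events set each difference against a spread between these libraries that is shared by all events of a type. Those of genes also measure only the spread between these libraries. Between 16951876 and 19737729 junction reads per library fell on skipped exon events. The comparison asks which exons of the chromatin genes were used differently when SAM68 was raised. For each event, the percent spliced in (PSI) is the share of the inclusion form, computed from junction reads divided by the effective length of each form, and changes are given in percentage points as SAM68 minus control. The gene of SAM68, KHDRBS1 (chromosome 1 of GRCh38, 32013868 to 32060850), was read at 311, 328 and 316 junction reads per 1000000 (rpm) without the SAM68 plasmid and at 1230, 1260 and 1276 with it. All SAM68 libraries lay above all control libraries (log2 fold change 1.98, standard error 0.047, adjusted p = 1.16e-21 from limma with Benjamini-Hochberg adjustment), and transcripts of the plasmid cannot be told from those of the chromosome.

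Of the 725 events of chromatin genes, 1 passed an adjusted p of 0.05 together with a change of at least 10 points, beside 62 (0.0934%) of all tested events. It was the inclusion of an exon of CHD2 that GENCODE lists only in a transcript annotated for nonsense-mediated decay, and its call did not survive several other ways to model the variation among libraries. An unadjusted p under 0.05 was reached by 29 events (4%), against 5.95% of all events. In 47 events (6.48%), 25 with higher and 22 with lower PSI, the 3 SAM68 libraries did not overlap the 3 control libraries, against 6.1% of all events (2043 higher and 2005 lower). These shares are near the background, and no difference between the chromatin genes and all events was tested. The median absolute change was 1.40 points among the chromatin genes and 1.24 points among all events. Of the 725 events, 424 had a mean PSI above 90%, 142 below 10% and 159 (21.9%, against 23.4% of all events) between these limits. The median absolute change was 5.02 points in the 159 events and 4.77 points in all such events. Of the 159, 64 were events of mutually exclusive exons (MXE), out of 85 such events. In 73 of the 85 both exons are part of the canonical transcript. A transcript that holds both can then add reads to either form or both, so PSI need not reflect a choice between them. Each event below that sets 1 exon against the next is of this kind. Most-read alternative events below are those between the limits.

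**Figure D1:**
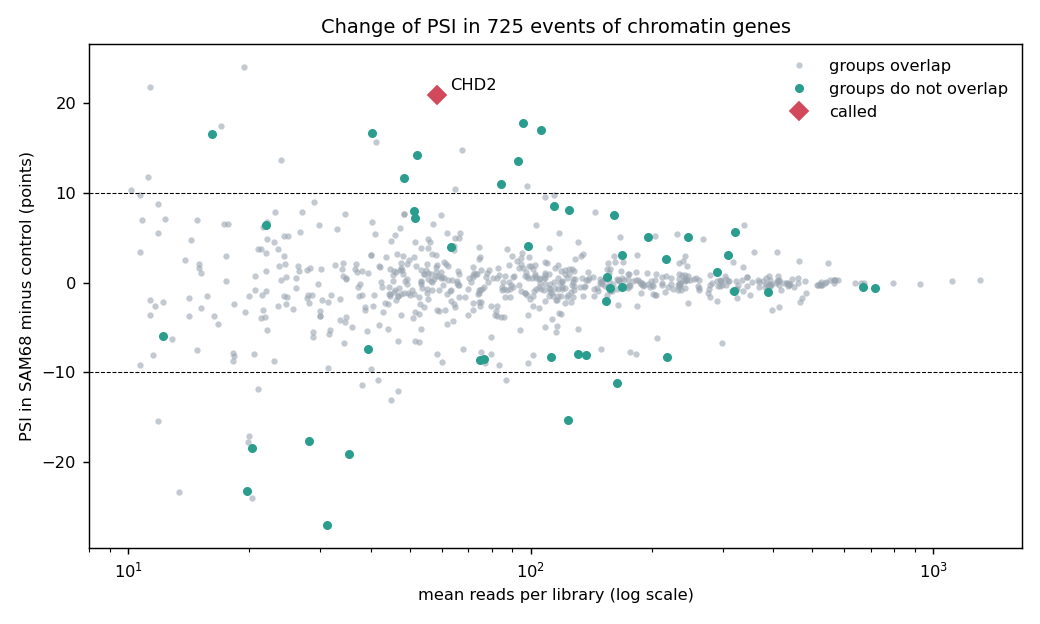
Change of PSI (SAM68 minus control, in points) against the mean reads per library (log scale) for the 725 events of chromatin genes. Dashed lines mark 10 points, green dots are events whose groups do not overlap, and the red diamond is the called CHD2 event. Changes of over 10 points were found mostly in events with few reads, and the called event had a mean of 58.5 reads.

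CHD2 (ENSG00000173575.20) encodes a chromodomain helicase that remodels nucleosomes, and its loss-of-function variants cause a childhood epilepsy. Its alternative exon (GRCh38 chromosome 15, 92998149 to 92998261, + strand) lies between exons 30 and 31 of the 39 exons of the canonical transcript. It is 113 nt long, which is not a multiple of 3, and GENCODE 44 places a stop codon inside it. The sequence is shown because the reading frame ends there. It runs from 20 nt of the intron before the exon to this stop codon (chr15:92998129-92998205, hg38, + strand), with the stop codon in capitals.
CHD2: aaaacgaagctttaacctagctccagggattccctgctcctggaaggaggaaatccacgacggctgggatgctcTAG
The exon stood at 6.79%, 8.38% and 7.37% in control cells and at 34.9%, 14.4% and 35.6% with SAM68. All SAM68 libraries lay above all control libraries, with the one in list position 2 far below the others of its group. The inclusion junctions had 8, 8 and 8 reads against 28, 11 and 33, and the skipping junction had 59, 47 and 54 reads against 28, 35 and 32. The mean rose from 7.51% ± 0.803 (SD, n = 3) to 28.3% ± 12.04 (SD, n = 3), by 20.8 points (adjusted p = 0.0238, quasi-binomial test moderated with limma). A two-sided exact permutation test gave p = 0.1, below which 3 against 3 libraries cannot go.

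This call rests on a spread estimated jointly for all skipped exon events. The first fit counted every library with reads toward its degrees of freedom, gave CHD2 an adjusted p of 0.1005 and called no event of a chromatin gene. The fit reported here leaves out groups in which only 1 form was read, and it was adopted after both outcomes had been seen, to match earlier results of these data. The call was also lost when limma was run on logit PSI (adjusted p = 0.896) and with the event's own spread (adjusted p = 0.692). It was kept in 1 of the 6 fits that left out a library, the one without the SAM68 library in list position 2 (27.8 points, adjusted p = 0.00527). It was lost without the control library in position 1, 2 or 3 (adjusted p = 0.172, 0.0646 and 0.105) and without the SAM68 library in position 1 or 3 (17.5 and 17.2 points, adjusted p = 0.246 and 0.367). A longer form of the same exon begins 11 nt upstream, at 92998138, and shares its downstream and skipping junctions, so the 2 events are not independent. Its PSI averaged 4.67% ± 1.32 (SD, n = 3) without and 18.9% ± 8.87 (SD, n = 3) with SAM68, 14.2 points apart and short of the threshold (adjusted p = 0.209). The event of CHD2 with the most reads, taken as the level of the gene, was read at 30.6 ± 4.15 rpm (SD, n = 3) in the control and 25.4 ± 5.87 (SD, n = 3) in the SAM68 libraries, which did not pass the test either (adjusted p = 0.513).

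Exons found only in transcripts annotated for nonsense-mediated decay, or in these and other non-coding transcripts, made up 53 of the 446 distinct skipped exons of the chromatin genes (11.9%), against 8.43% of all tested skipped exons. Such exons were mostly rare, with a median PSI of 3.40% (3.79% over all genes). In 6 of the 53 (11.3%), which belong to 4 genes, the groups did not overlap, and PSI was higher in the SAM68 libraries in each. Over all genes the groups did not overlap in 228 of the 3269 exons of this class (6.97%), 128 higher and 100 lower. This class was singled out only once the values were known, and pairs in CHD2 and SETD2 share junctions. The 6 comprise both CHD2 forms, a pair in SETD2 (5.08% to 13.01% and 5.37% to 12.6%), 1 in SETD5 (57.5% to 74.5%) and 1 in KDM5C (0.717% to 1.30%). Apart from the CHD2 exon called above, none of the 6 passed the adjusted p.

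Among the CHD, ISWI and other SNF2 remodelers, 119 events of 14 genes were tested, and the CHD2 event was the only 1 called. An unadjusted p under 0.05 was found for 5 of the 119 (4.20%, against 5.95% of all events), and in 8 (6.72%, against 6.1%) the groups did not overlap. CHD3 and CHD4 encode the ATPases of the NuRD complex, which joins remodeling to deacetylation. Exon 33 of CHD3 (chromosome 17, 7907601 to 7907702, 102 nt, coding) stood at 85.0%, 73.5% and 73.2% in control cells and at 69.2%, 67.3% and 61.5% with SAM68. All SAM68 values were lower, but the mean difference of -11.2 points did not pass the test (adjusted p = 0.699) and was -7.32 points without the control library in position 1. With the listed events of this exon summed, the difference was -8.20 points (adjusted p = 0.730, quasi-binomial test). The most-read alternative event of CHD4 is a choice between 3ʹ splice sites 39 nt apart, after exon 8. The upstream site was used in 60.5%, 63.5% and 67.7% of the control and 62.4%, 63.5% and 68.0% of the SAM68 transcripts, so the groups overlapped almost fully. The 39 nt it adds keep the reading frame and are shown in capitals with 20 nt on either side (chr12:6600337-6600415, hg38, - strand).
CHD4: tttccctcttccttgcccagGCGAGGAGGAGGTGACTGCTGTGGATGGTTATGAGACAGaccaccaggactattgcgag
An event of CHD3 that sets exon 38 against exon 39 averaged 18.1% ± 1.85 (SD, n = 3) without and 15.8% ± 2.24 (SD, n = 3) with SAM68, with no call (adjusted p = 0.901).

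SWI/SNF subunits contributed 143 events of 14 genes, with no call, 6 events (4.20%, against 5.95% of all events) at an unadjusted p under 0.05 in the quasi-binomial test and 8 events (5.59%, against 6.1% of all events) whose groups did not overlap. SMARCB1, a core subunit lost in rhabdoid tumors, was read from 185.8 to 191.9 rpm in all 6 libraries. Its exon 2 has 2 alternative 5ʹ splice sites 27 nt apart, and both were used about equally. The longer form stood at 48.1%, 49.9% and 55.4% in control cells and at 51.2%, 49.2% and 44.9% with SAM68, and the groups overlapped (adjusted p = 0.822). The 27 nt keep the reading frame. They are given in capitals with 20 nt on either side (chr22:23791848-23791914, hg38, + strand), because they hold TAAA, a motif of the kind that SAM68 is known to bind in RNA as UAAA.
SMARCB1: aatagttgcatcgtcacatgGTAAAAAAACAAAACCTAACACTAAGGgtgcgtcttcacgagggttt
In ARID1A, which encodes the DNA-binding subunit of the BAF form of SWI/SNF, a 3ʹ splice site after exon 17 was used in 93.9%, 92.3% and 88.1% of the control transcripts and in 100% of those of every SAM68 library. The junction of the other site had 4, 5 and 6 reads in control cells and none of 339 with SAM68, which by counting error alone, with the libraries pooled, allows a share of up to 0.885% of the reads. The spread between libraries makes this limit wider. The difference of 8.54 points did not pass the test (adjusted p = 0.418) and was 4.48 points without normalization by length. Exon 5 of SMARCD1 (chromosome 12, 50087363 to 50087485), an accessory subunit, averaged 86.8% ± 1.93 (SD, n = 3) without and 92.5% ± 0.938 (SD, n = 3) with SAM68 with a mean of 321.5 reads, and again the groups did not overlap (adjusted p = 0.699). The most-read alternative event of SMARCD2 set exon 3 against exon 4 and differed by -2.22 points (adjusted p = 0.901).

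**Figure D2:**
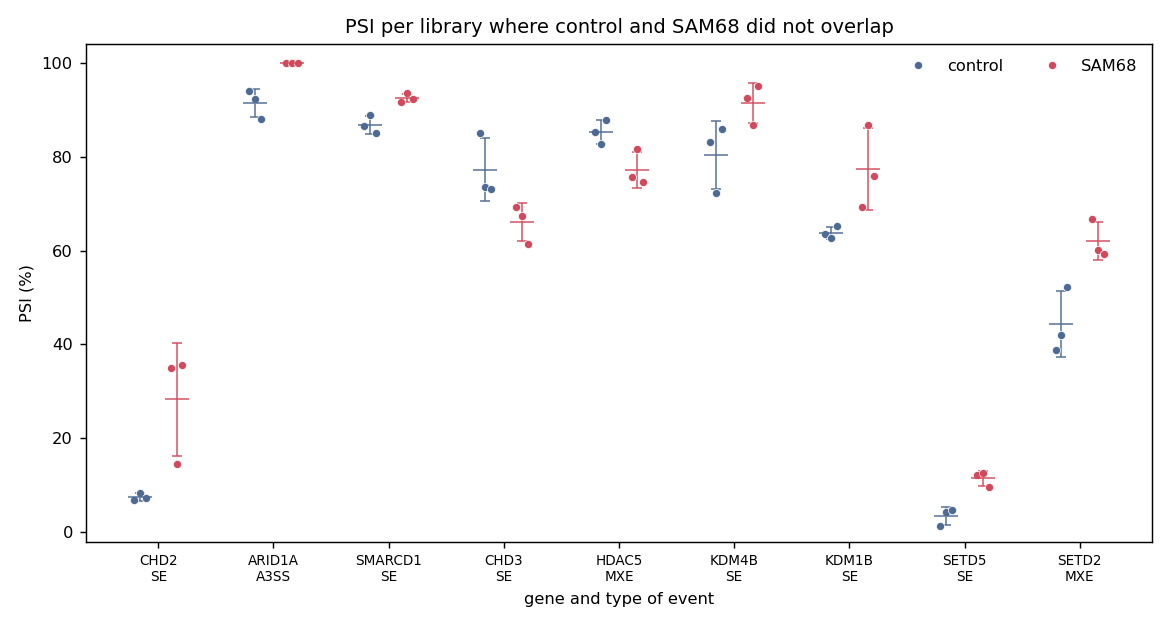
PSI (in percent) of each library for the events named because their control (blue) and SAM68 (red) libraries did not overlap. Points are libraries, and the bars give the mean ± SD of 3 libraries. Only the CHD2 event passed the adjusted p, and its SAM68 libraries ranged from 14.4% to 35.6%.

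KMT and SETD methyltransferases were the largest list by events, with 156 in 17 genes. None was called, while 10 (6.41%, against 5.95% of all events) had an unadjusted p under 0.05 in the quasi-binomial test and 11 (7.05%, against 6.1%) had groups that did not overlap, 8 of them with higher PSI. SETD2 is the methyltransferase that makes trimethylated lysine 36 of histone H3. Its event sets exon 10 (chromosome 3, 47088113 to 47088247) against exon 11 (47086195 to 47086314) between exons 9 and 12. Both exons are part of the canonical transcript, which also holds the junctions of exons 9 and 10 and of exons 11 and 12. Its reads can thus count toward both forms, and PSI is not a share of transcripts that lack either exon. Exon 10 stood at 38.8%, 41.9% and 52.2% in control cells and at 66.7%, 60.1% and 59.2% with SAM68, a difference of 17.7 points (adjusted p = 0.262). All SAM68 libraries were higher. In SETD5, a gene mutated in intellectual disability, an exon of 57 nt between exons 18 and 19 stood at 1.35%, 4.35% and 4.796% in control cells and at 12.2%, 12.7% and 9.71% with SAM68. The rare exon was thus read more in each SAM68 library, with 19, 21 and 14 inclusion reads against 3, 8 and 8, but the difference of 8.02 points did not pass the test (adjusted p = 0.209). The exon keeps the reading frame and is given in capitals (chr3:9468499-9468595, hg38, + strand).
SETD5: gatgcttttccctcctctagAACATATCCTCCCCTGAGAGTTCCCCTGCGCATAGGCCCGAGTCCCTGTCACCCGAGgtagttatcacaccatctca
KMT5A, which methylates lysine 20 of histone H4, and KMT2D, which methylates lysine 4 of histone H3, gave the most-read alternative events of the list. The PSI of exon 6 of KMT5A against exon 7 was 34.8% ± 2.50 (SD, n = 3) and 39.9% ± 1.39 (SD, n = 3), and that of exon 52 of KMT2D against exon 53 was 60.6% ± 4.92 (SD, n = 3) and 68.1% ± 1.05 (SD, n = 3). In both the groups did not overlap, and neither passed the test (adjusted p = 0.835 and 0.788). As in SETD2, both exons of each pair are part of the canonical transcript, so these values need not reflect a choice between them. Another KMT2D event with fewer reads, exon 15 against exon 16, went the other way, from 51.2% ± 6.46 (SD, n = 3) to 35.9% ± 11.4 (SD, n = 3), also without overlap and without a call (adjusted p = 0.348).

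Lysine demethylases gave 87 events in 16 genes, with no call and 5 events (5.75%, against 5.95% of all events) at an unadjusted p under 0.05 in the quasi-binomial test. In 9 events (10.3%, against 6.1%) the groups did not overlap. KDM1A (LSD1) removes methyl groups from lysine 4 of histone H3. Its exon 3 of 60 nt was included in 30.8%, 25.9% and 28.8% of the control and 34.6%, 22.9% and 25.9% of the SAM68 transcripts, and the groups overlapped (adjusted p = 0.940). It keeps the reading frame and is given in capitals (chr1:23044407-23044506, hg38, + strand).
KDM1A: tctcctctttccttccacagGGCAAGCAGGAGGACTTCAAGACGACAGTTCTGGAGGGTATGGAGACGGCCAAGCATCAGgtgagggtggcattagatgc
Exon 10 of its relative KDM1B (chromosome 6, 18191197 to 18191381) stood at 63.5%, 62.6% and 65.1% in control cells and at 69.4%, 86.7% and 75.8% with SAM68. The SAM68 libraries were higher but varied much more among themselves, and the difference of 13.5 points did not pass the test (adjusted p = 0.699). Without the SAM68 library in position 2 it was 8.83 points. An exon of KDM4B, a demethylase of lysine 9 of histone H3, lies between exons 10 and 11 (chromosome 19, 5119118 to 5119219). Its PSI averaged 80.4% ± 7.22 (SD, n = 3) without and 91.4% ± 4.28 (SD, n = 3) with SAM68, also without overlap and without a call (adjusted p = 0.699), and the difference was 6.91 points without the control library in position 2. In KDM5C, the event of exon 2 against exon 3 differed by -6.68 points, with overlapping groups (adjusted p = 0.660), and by -2.53 points without the SAM68 library in position 1.

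Histone deacetylases gave 147 events in 11 genes, of which 35 were in HDAC10, the gene with the most events. No event was called, 2 (1.36%, against 5.95% of all events) had an unadjusted p under 0.05 in the quasi-binomial test, and in 7 (4.76%, against 6.1% of all events) the groups did not overlap. HDAC5 and HDAC7 are class IIa deacetylases, which shuttle between nucleus and cytoplasm. The PSI of exon 2 of HDAC5 against exon 3 was 85.3%, 82.7% and 87.9% in control cells against 75.6%, 81.6% and 74.5% with SAM68. The SAM68 values were all lower, with a mean difference of -8.07 points and no call (adjusted p = 0.704). Exon 21 of HDAC7 against exon 22 was at 43.98% ± 0.258 (SD, n = 3) and 42.6% ± 1.01 (SD, n = 3), close in all 6 libraries (adjusted p = 0.953). In both genes the exons set against each other are part of the canonical transcript, so transcripts with both can count toward both forms. Exon 3 of HDAC3, the deacetylase of the NCoR and SMRT corepressor complexes, averaged 89.3% ± 3.69 (SD, n = 3) without and 86.3% ± 3.23 (SD, n = 3) with SAM68, with overlapping groups (adjusted p = 0.699).

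Bromodomain readers gave 56 events in 4 genes, with no call and 1 event (1.79%, against 5.95% of all events) at an unadjusted p under 0.05 in the quasi-binomial test. In 3 events (5.36%, against 6.1% of all events) the groups did not overlap, each with lower PSI, and 2 of these, in BRD1, share a skipping junction. BRD2 is a BET protein that binds acetylated histones at transcribed genes. It has an exon of 92 nt between exons 3 and 4 (chromosome 6, 32975021 to 32975112) that, as in CHD2, is listed in no protein-coding transcript, and 3 of the 4 transcripts that hold it are annotated for nonsense-mediated decay. It was read deeply, with a mean of 548 reads, and its PSI was 14.9%, 17.5% and 17.6% in control cells against 17.4%, 18.1% and 21.1% with SAM68. The groups overlapped, and the difference of 2.21 points did not pass the test (adjusted p = 0.699). The exon of 219 nt of BRD8, a subunit of the TIP60 acetyltransferase complex, was at 78.6% ± 2.44 (SD, n = 3) and 83.5% ± 6.47 (SD, n = 3) and did not pass the test (adjusted p = 0.699). The other ARID proteins gave 16 events in 5 genes, with no call and none at an unadjusted p under 0.05 in the quasi-binomial test. Their most-read alternative events, exon 6 of ARID3A against exon 7 and exon 3 of ARID4A against exon 4, differed by 2.62 and -7.34 points (adjusted p = 0.952 and 0.902), the latter without overlap.

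**Figure D3:**
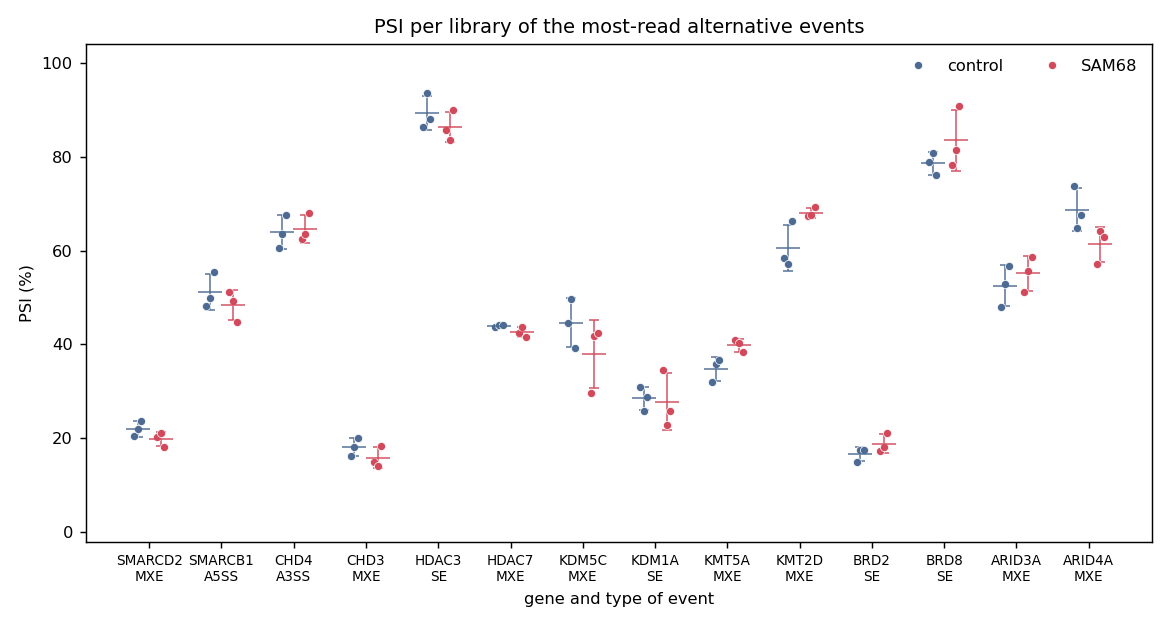
PSI (in percent) of each library for the most-read alternative events of each list of chromatin genes, with control in blue, SAM68 in red and bars for the mean ± SD of 3 libraries. The groups overlapped in most events, such as KDM1A and SMARCB1, and none passed the adjusted p.

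The median length of the skipped exons of the chromatin genes was 119.5 nt (117 nt over all 38788 tested exons), and 43.5% had a length that is a multiple of 3 (40.5% over all). Among the 52 exons with a PSI between 10% and 90%, 61.5% kept the frame, against 45.4% of 5224 such exons over all genes. TAAA lay within 200 nt before 57.7%, inside 28.8% and within 200 nt after 67.3% of these 52 exons, against 58.7%, 29.4% and 59.95% of the 5224, and no difference of these shares was tested. The motif TAAA on the transcribed strand was found within 200 nt before 57.2% and within 200 nt after 59.0% of the exons, against 59.7% and 60.4% over all. The CHD2 exon has 1 TAAA before it, 1 after it and none inside. A match of these letters is not a binding site. Of the 85 MXE events, 73 set exons against each other that are both part of the canonical transcript, which is the limit on their PSI given above.

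The levels of the genes were compared through their junction reads, with the event that has the most reads standing for each gene. Such reads also depend on which event was listed, so levels are not compared between genes per length, and in bulk RNA fewer cells with a transcript and less transcript per cell cannot be told apart. Of 82 chromatin genes, none passed an adjusted p of 0.05 from limma together with a log2 fold change of at least 1, beside 5 (0.0493%) of 10147 genes. An unadjusted p under 0.05 was found for 9 chromatin genes (10.98%, against 12.1% of all genes). In 11 chromatin genes (13.4%, against 16.8% of all genes) the groups did not overlap, 2 with higher and 9 with lower reads, and over all genes 613 were higher and 1095 lower. The log2 fold change was negative in 56 of the 82 genes, with a median of -0.09, and in 5783 of all genes, with a median of -0.03. The number of negative values among the chromatin genes was 51 with scaling by medians of ratios and 62 with the reads of all events summed.

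HDAC1, the deacetylase of several corepressor complexes, was the most read, at 307, 214 and 233 rpm in control cells against 198, 183 and 195 with SAM68. All SAM68 values were lower, and the control library in list position 1 stood above the others. The log2 fold change was -0.37 (standard error 0.088), and the adjusted p of 0.0528 from limma missed the threshold. Without that control library the log2 fold change was -0.22 (adjusted p = 0.369), and with the reads of all its events summed it was -0.15 (adjusted p = 0.338). Without the SAM68 library in position 3 the adjusted p was 0.0418 at a log2 fold change of -0.38, still short of the limit on the change. CHD4 (118.8 and 124.8 rpm in the group means), BRD2 (139.8 and 129.5 rpm), KMT2B (82.3 and 80.2 rpm), KDM1A (69.3 and 72.0 rpm) and ARID3A (22.2 and 21.4 rpm) led their lists, and none passed the test. The least read genes of the lists were KDM8, SMARCD3, CHD5, KMT5C, ARID5A, HDAC11 and BRD1, from a mean of 1.90 rpm in KDM8 to 13.3 rpm in BRD1, and none of these passed the test. The standard error of their log2 fold changes ran from 0.214 in BRD1 to 0.476 in KDM8. The smallest difference that could have been detected at these few reads was not tested.

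**Figure D4:**
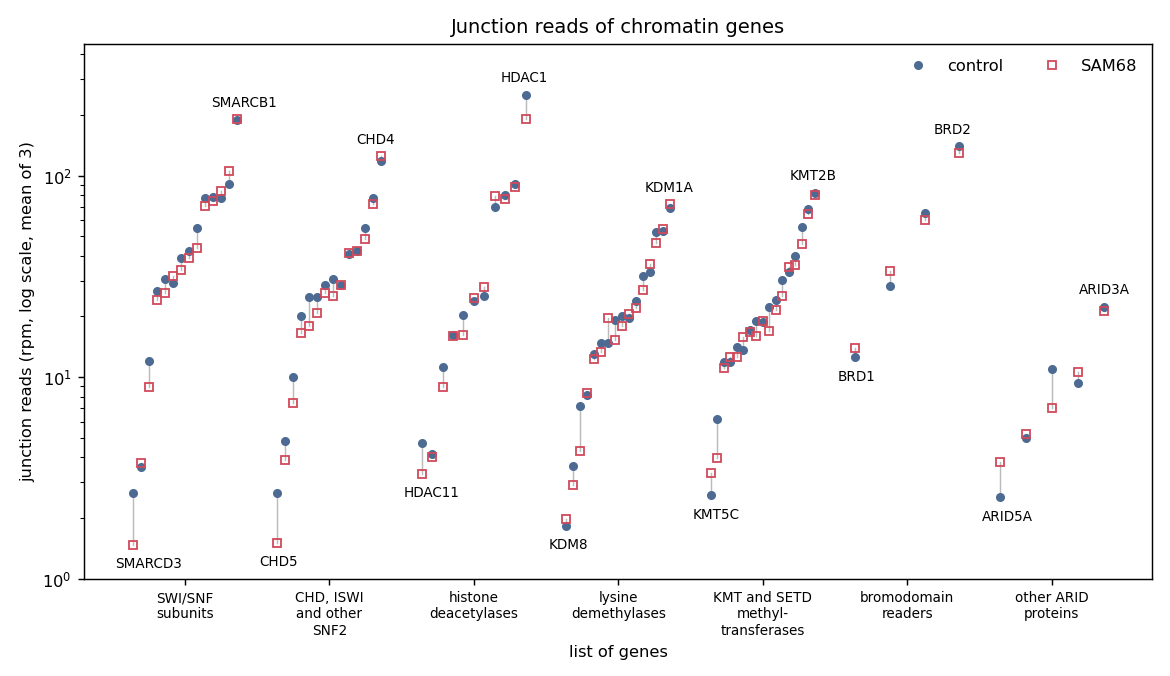
Junction reads in rpm (log scale, mean of 3 libraries) of the chromatin genes by list, with control as filled circles and SAM68 as open squares joined by a line for each gene. The highest and lowest gene of each list are named, and in HDAC1 the SAM68 mean of 192 rpm lies below the control mean of 251.5 rpm.

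A list of other chromatin genes outside the symbol rule gave 726 tested events in 76 genes. None of these events was called by the quasi-binomial test, 38 (5.23%, against 5.95% of all events) had an unadjusted p under 0.05, and in 38 (5.23%, against 6.1%) the groups did not overlap. None of the 76 genes was called by limma on their junction reads, 10 (13.2%, against 12.1% of all genes) had an unadjusted p under 0.05, and 1 had an adjusted p under 0.05 with a log2 fold change below the limit. For the identity of the cells, 4 of 11 epithelial and LUAD markers were listed with enough reads, led by KRT18 at a mean of 503.5 rpm. The sum of these 4 was 997, 742 and 734 rpm in control cells against 775, 764 and 763 with SAM68, so that the control library in list position 1 stood apart, as it did for HDAC1. Of the 4, 3 had an unadjusted p under 0.05 and 2 had groups without overlap, but none passed the adjusted p, and the part of that library in these values was not tested. None of 6 fibroblast and 4 endothelial markers and 1 of 6 immune markers was listed with enough reads, the last being CD68, which tumor cells can also express. A gene without a listed AS event is not in these tables, so its level was not analysed here.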

How the data were processed

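RNA of NCI-H1975 cells (3 control and 3 SAM68 libraries) was processed by the authors. Per the labels, CASAVA 1.4, fastp 0.20.0 and HISAT2 2.1.0 were used with GRCh38, and the study's methods name rMATS. The authors deposited 5 tables of junction read counts of the inclusion and skipping form, as lists of 3 values per group, with effective lengths. Their own p-values, FDR and level differences were not used. The lists carry no replicate numbers, and the first list was taken as control from the study's naming of its comparison. Of 78336 events, 275 had lists regrouped by a spreadsheet; 162 were recovered with the help of the printed inclusion levels and 113 left out, none of them in the chromatin genes. Another 679 events, 5 of them of chromatin genes, could be read in a further way, and the printed form was kept.

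PSI was computed per library. For MXE it is that of the exon closer to the 5ʹ end, which the effective lengths bore out in 3569 of 3569 pairs of unequal length. Events that averaged 10 reads or more entered a quasi-binomial model, with the dispersion moderated within each type (squeezeVar of limma 3.58.1 in R 4.3.3), Benjamini-Hochberg adjustment within type over all events, and a call at an adjusted p under 0.05 and a change of at least 0.1. A group in which only 1 form was read was not counted toward the residual degrees of freedom. The prior degrees of freedom were then infinite, so each type had a joint dispersion (2.296 for SE), which is too small for an event that varies more. The first fit counted every library with reads and called 18 events of all genes and 0 of chromatin genes. The rule above was adopted after both outcomes were seen, because with it the dispersions and the 62 calls over all genes equal those of earlier results of these data, which are not the study's own and do not state the rule. It adds the CHD2 call. Junction reads per gene were tested with limma on log2(rpm + 0.5) (eBayes with trend). The planned edgeR and DESeq2 tests were not run. The lists hold integer counts that such tests could take, but this work keeps both tools to tables with 1 count per cell, and limma took their place. Single comparisons used exact permutation tests, two-sided. Both tests were checked on simulated counts. All 15 pairs of libraries differed by more than sampling noise (chi-square per degree of freedom 3.14 to 4.54 within and 4.48 to 6.395 between groups), so no library was merged with another. Exons were annotated with GENCODE 44, and sequences were read from hg38, where 99.9% of tested skipped exons were preceded by AG.

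The members and gene lists were chosen with earlier results of these data known. Named events are the called ones, and in each list up to 2 with the smallest p among those with at least 50 reads, groups without overlap and a change of at least 5 points, and the 2 with most reads among those with a mean PSI of 10% to 90%, 1 per gene; 1 event that this rule takes is not reported. The further CHD2 form, the exons of decay-annotated transcripts and exon 15 of KMT2D are given outside this rule, for what they share with a named event or class. Named genes are those with the highest and lowest rpm of each list and those called.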

Additional observations from a re-analysis of the deposited data

How the results depend on the processing

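The count of 1 called event among the chromatin genes, and of 62 among all genes, varied with the way variation among libraries was modelled. It was 0 of chromatin genes and 3 of all genes when limma was run on logit PSI, 0 and 2 with each event's own dispersion, and 13 and 1354 with a likelihood ratio test on pooled counts, which ignores the spread. When every library with reads counted toward the degrees of freedom, it was 0 and 18. That was the first fit made, and the reported one replaced it after both outcomes were seen. The limit on the change of PSI moved the count over all genes to 106 (limit 0.05) and 38 (limit 0.2), while that of the chromatin genes was 1 in both. Leaving out each library in turn gave 0 to 1 called events of chromatin genes and 53 to 75 of all genes. The cause was not tested.

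No chromatin gene was called by junction reads under any of the settings run. Over all genes, 3 were called with scaling by medians of ratios and 3 with the reads of all events summed, and 1 to 12 when a library was left out. KHDRBS1 lay between 1.94 and 2.01 on the log2 scale under all settings run. Some values changed sign. The PSI change of CHD4 ran from -0.973 to 2.63 points and that of KDM1A from -4.09 to 1.76 points with a library left out. Other changes kept their sign but shrank to -0.588 points (SMARCB1), -1.34 (SMARCD2), -1.37 (CHD3 exon 38 against 39), -0.929 (HDAC3), 1.08 (BRD2), 1.26 (BRD8), 0.335 (ARID3A) and -4.80 (ARID4A). Without normalization by length, changes were 3.25 (SMARCD1), 7.11 (KDM4B), 9.14 (KDM1B), 10.8 (SETD5), -1.70 (HDAC3), 2.96 (BRD2), 2.90 (BRD8) and -8.18 points (CHD3 exon 33). With skipped exon events of the same exon summed, changes were -8.20 (CHD3 exon 33), 2.84 (BRD8) and 4.87 points (SMARCD1). The other named skipped exons kept their change under that setting. With all events summed, the log2 fold change was -0.0202 for CHD4, -0.11 for KDM8, -0.10 for KDM1A, -0.20 for KMT5C (0.34 in the main fit) and 0.00513 for BRD2. With a library left out it ran from -0.0794 to 0.28 for KDM8, from -0.12 to 0.15 for KDM1A, from -0.16 to 0.0573 for ARID3A and from -0.11 to 0.0247 for KMT2B. No paired analysis was possible because the lists carry no replicate numbers: the sample titles are numbered, but nothing ties a list position to a title. The planned edgeR and DESeq2 alternatives and TMM factors were not run, since this work keeps them to tables with 1 count per cell. Depth limits what could be detected in genes and events with few reads.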
